A study of Mus musculus with 12 samples.

Results

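Lactoferrin (Ltf), lipocalin 2 (Lcn2) and the polymeric immunoglobulin receptor (Pigr) are 3 epithelial genes of mucosal defence, and their RNA was followed across mouse uterus and oviduct with and without excess estradiol (E2). The genes were chosen by name from an annotation of the array's probe sets. Each had 1 probe set, so 3 genes of 19938 measured are described, and no second probe set could be set beside any of them. The arrays were 12 Affymetrix mouse gene arrays, 3 for each of 4 groups, and the values are log2 intensities. In the groups called E2 uterus and E2 oviduct, pregnant mice had received E2 at 10 µg/kg (about 250 ng per mouse and day) by daily subcutaneous injection from day 0.5 to day 2.5 after mating. In the groups called oil uterus and oil oviduct they had received 100 µl of sesame oil alone. All mice were dissected on day 3.5, and both organs were flushed before freezing. The labels give no strain, age or number of mice per sample. The labels call the 3 samples of a group biological replicates.

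Lactoferrin is a secreted glycoprotein that binds iron tightly and so withholds it from microbes. It is among the oldest known markers of estrogen action on mouse uterine epithelium. Lipocalin 2 is a small secreted protein that captures bacterial siderophores, the molecules with which bacteria collect iron, and both proteins are also stored in neutrophil granules. Pigr, made by epithelial cells, picks up polymeric IgA and IgM at the basal side and carries them to the lumen, where its outer part is released with the antibody as secretory component. In the rodent genital tract this transport is known to be under hormonal control.

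The sequences upstream of the 3 genes are shown because E2 raised all 3 in the uterus. Each is the window of 250 bases before the RefSeq transcription start in build GRCm38.p6, 5′ to 3′ on the strand of the gene. That of Ltf is chr9:111019042-111019291 on the plus strand, that of Lcn2 chr2:32387740-32387989 on the minus strand, and that of Pigr chr1:130826434-130826683 on the plus strand. Capitals mark the matches found to the motifs listed after the sequences.
Ltf: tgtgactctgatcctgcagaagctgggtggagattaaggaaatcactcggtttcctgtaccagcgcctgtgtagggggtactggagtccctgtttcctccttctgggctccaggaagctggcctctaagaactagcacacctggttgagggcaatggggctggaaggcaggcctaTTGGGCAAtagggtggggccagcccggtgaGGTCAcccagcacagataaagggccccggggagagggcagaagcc
Lcn2: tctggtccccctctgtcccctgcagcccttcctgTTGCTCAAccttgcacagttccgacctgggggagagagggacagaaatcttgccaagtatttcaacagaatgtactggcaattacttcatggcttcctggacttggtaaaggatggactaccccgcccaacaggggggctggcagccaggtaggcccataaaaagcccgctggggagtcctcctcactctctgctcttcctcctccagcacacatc
Pigr: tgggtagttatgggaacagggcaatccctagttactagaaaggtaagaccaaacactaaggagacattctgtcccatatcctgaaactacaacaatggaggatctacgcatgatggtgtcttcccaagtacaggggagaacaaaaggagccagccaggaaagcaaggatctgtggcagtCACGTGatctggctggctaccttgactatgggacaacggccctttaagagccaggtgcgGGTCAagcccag

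The motifs searched on both strands were the palindromic estrogen response element (GGTCA, then NNN, then TGACC), its single repeat GGTCA, the E-box CACGTG, the C/EBP motif TTNNGCAA, TATAAA, the interferon response motif (GAAA, then NN, then GAAA) and the NF-kB motif. The single repeat is part of the palindrome, so those matches can overlap. The palindrome matched none of the 3 windows, and it matched 0.0639% of the 32851 promoter windows of this length in the table. The Ltf window held GGTCA at -45 to -41 from the start and the C/EBP match TTGGGCAA at -75 to -68. The Lcn2 window held 1 match, the C/EBP motif on the opposite strand at -216 to -209. The Pigr window held GGTCA at -12 to -8 and the E-box CACGTG at -71 to -66. Of all windows 35.2% held GGTCA, 9.56% the C/EBP motif and 6.02% the E-box. TATAAA (12.4% of all windows), the interferon motif (2.98%) and the NF-kB motif (5.93%) had no match in the 3 windows. These matches describe letters in short windows and are not evidence of binding.

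Array medians lay between 89.5 and 92.9 on the intensity scale. The third oil replicate was unlike the others in uterus and in oviduct. In the oil uterus array 177 genes, and in the oil oviduct array 302, differed by over 1 log2 unit from the average of the remaining 2 arrays of the group, against 8 to 62 genes on each other array. On that oviduct array 6 corpus luteum markers summed to an intensity of 4855, the highest of the oil oviduct arrays, against 291 on the lowest. Results are therefore given with and without oil replicate 3 where it matters. Markers of the labelled tissues were compared in oil mice, where 17.3% of all genes were called higher and 21.5% lower in oviduct by limma. Of 9 uterine and gland markers 5 were lower and 1 higher in oviduct by limma, and the one that was higher was the calcium-binding Calb1 (1.21, SE 0.27). The gland factor Foxa2 was at 0.14 (SE 0.15) and was not called. The homeobox genes Hoxa11 and Hoxa10 were lower in oviduct than in uterus, by log2 differences of -3.92 (SE 0.10) and -2.57 (SE 0.11), and 11 of 12 ciliated cell markers were higher in oviduct by limma, with the axonemal gene Dnali1 at 4.66 (SE 0.23). As a guide to background, the highest value of a Y-linked gene, which female tissue lacks, was 7.50 (Sry), or 4.40 without Sry. Group means below 7.50 leave the exact size of a fold uncertain.

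In the uterus E2 raised all 3 genes, and every E2 array lay above every oil array, as for 19.0% of all genes. Ltf went from a mean of 6.60 to a mean of 12.05, a 43.7-fold rise. Lcn2 rose 35.3-fold and Pigr 11.2-fold. Oil uterus means lay below the highest Y-linked value for each of the 3 genes.

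Ltf measured 6.76, 6.73 and 6.31 on oil uterus replicates 1 to 3, and 12.12, 11.99 and 12.05 on the E2 uterus replicates. The E2 arrays lay close together (SD 0.06) and the oil arrays were more spread (SD 0.25, n = 3 each). The log2 difference was 5.45 (SE 0.19, 95% interval 5.03 to 5.87, adjusted p = 2.7e-08 by limma). By size it was rank 3 among the rises of 19938 genes.

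Lcn2 measured 7.24, 7.04 and 7.87 on the oil uterus replicates, and 12.60, 12.37 and 12.61 on the E2 replicates. Oil replicate 3 was the highest oil array, 0.73 above the mean of the other 2, where Ltf on the same array was 0.43 below them. The log2 difference was 5.14 (SE 0.21, 95% interval 4.67 to 5.61, adjusted p = 7.3e-08 by limma), rank 6 among rises.

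Pigr measured 7.05, 6.77 and 6.41 on the oil uterus replicates, and 10.49, 9.94 and 10.25 on the E2 replicates. Its spread was alike in both groups (SD 0.32 in oil and 0.28 in E2). The log2 difference was 3.48 (SE 0.20, 95% interval 3.04 to 3.92, adjusted p = 4.3e-07 by limma), rank 21 among rises. Over all genes, 12.4% were called higher in this comparison, 2.03% were called higher by at least 2-fold, and 19.0% had E2 arrays all above the oil arrays. Without both oil replicate 3 arrays the differences were 5.31 for Ltf, 5.39 for Lcn2 and 3.32 for Pigr. An exact permutation test of 3 against 3 arrays, two-sided, cannot give a p below 0.1.

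Epithelial markers moved with the 3 genes in uterus: 13 of 14 rose and 0 fell by limma (14 had an unadjusted p under 0.05), with a median of 0.75. The marker that was not called, Cldn3, lay on the lower side (-0.26, SE 0.10, adjusted p = 0.079 by limma), and was named after its values were seen. Their summed intensity ranged from 4664 to 5443 in oil uterus and from 9854 to 11021 in E2 uterus. The epithelial adhesion gene Epcam rose by 1.12 (SE 0.07), the keratins Krt7 by 2.13 (SE 0.16) and Krt19 by 1.93 (SE 0.12), and the epithelial transcription factor Elf3 by 2.58 (SE 0.15). Elf3 had the highest value of the 14, below those of the 3 members, and that difference between genes was not tested. Smooth muscle markers rose in 2 of 8 genes (7 without both oil replicate 3 arrays), and uterine and gland markers fell in 6 of 9. Beside these counts, 12.4% of all genes were called higher and 14.3% lower in this comparison, and 7193 of 19938 had an unadjusted p under 0.05. In whole tissue, more cells of a type and more RNA per cell cannot be told apart, and the part of epithelial content in the rise of the 3 genes was not tested.

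**Figure D1:**
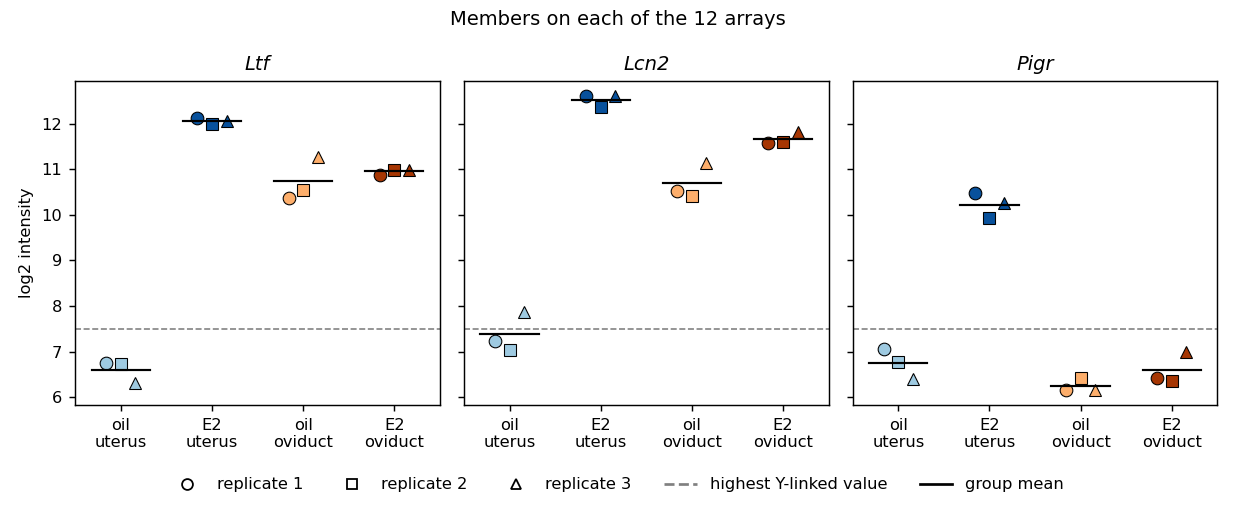
Log2 intensity (vertical axis) of Ltf, Lcn2 and Pigr on each array of the 4 groups, with replicates as symbols, group means as bars and the highest Y-linked value of 7.50 as a dashed line. All 3 genes are high in E2 uterus, while Ltf and Lcn2 but not Pigr are also above 10 in both oviduct groups.

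In the oviduct none of the 3 genes passed the test for an E2 effect. Ltf and Lcn2 were well above the highest Y-linked value in oil oviduct, at means of 10.73 and 10.70. Pigr stayed below 7.50 on all 6 oviduct arrays. Of all genes, 0.160% were called higher and 0.130% lower in this comparison, and 2094 of 19938 had an unadjusted p under 0.05.

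Ltf measured 10.38, 10.54 and 11.27 on oil oviduct replicates 1 to 3, and 10.88, 10.99 and 10.98 on the E2 oviduct replicates. The groups overlapped, because oil replicate 3 lay above every E2 array. The log2 difference was 0.22 (SE 0.19, 95% interval -0.20 to 0.64, adjusted p = 0.75 by limma). Without both oil replicate 3 arrays it was 0.49 (SE 0.08) with an adjusted p of 0.024 by limma. Leaving out any single array gave values from 0.05 to 0.49, none past the test.

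Lcn2 measured 10.53, 10.42 and 11.14 on the oil oviduct replicates, and 11.57, 11.60 and 11.83 on the E2 replicates. Every E2 array lay above every oil array, as it did for 8.31% of all genes. The log2 difference was 0.97 (SE 0.21, 95% interval 0.50 to 1.44), a 1.96-fold difference, with an unadjusted p of 0.00079 and an adjusted p of 0.12 by limma. By size it was rank 35 among 19938 genes. Lcn2 passed the test without oil oviduct replicate 3 (1.19), without oil uterus replicate 3 (0.97), whose absence lowers the pooled spread, and without both of them (1.19, SE 0.11, adjusted p = 0.0012 by limma). It also passed with all arrays kept but weighted by limma's array weights (1.14, SE 0.15, adjusted p = 0.005 by limma), and with replicate number as a block (0.97, SE 0.13, adjusted p = 0.031 by limma). That block joins oil and E2 arrays that share only a number, so its result adds little.

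Pigr measured 6.16, 6.43 and 6.15 on the oil oviduct replicates, and 6.43, 6.36 and 6.99 on the E2 replicates. The groups overlapped, and E2 replicate 3 was the highest by 0.60 over the mean of the other 2. The log2 difference was 0.35 (SE 0.20, 95% interval -0.09 to 0.79, adjusted p = 0.59 by limma), between means that both lay below the highest Y-linked value. For Pigr it was 0.30 without both oil replicate 3 arrays and 0.15 without E2 oviduct replicate 3.

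Epithelial markers in the oviduct had a median E2 difference of -0.14, with 0 of 14 called higher and 1 called lower by limma (4 had an unadjusted p under 0.05), and none was called without both oil replicate 3 arrays. Their summed intensity was 10311 to 11537 in oil oviduct and 9761 to 10377 in E2 oviduct. Of 10 macrophage markers 0 passed limma's test, but 8 had an unadjusted p under 0.05 and the median was 0.48. The macrophage sum was 1742 to 2693 with oil and 2987 to 3599 with E2, and the sum of 20 neutrophil markers was 861 to 1153 and 1139 to 1308. Of those 20 markers 0 passed limma's test, 4 had an unadjusted p under 0.05, and the median was 0.03. In each oviduct group 19 of them lay below the highest Y-linked value on every array. The exception was Mmp8, with means of 7.26 with oil and 7.96 with E2 (0.70, SE 0.29). Ly6g differed by 0.62 (SE 0.20), and both genes are part of that sum. In oil mice Mmp8 was higher in oviduct than in uterus by 3.25 (SE 0.29). There 2 of the 20 markers were called higher and 6 lower, beside 17.3% and 21.5% of all genes. The part of macrophages and neutrophils in the oviduct values of Lcn2 was not tested.

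**Figure D2:**
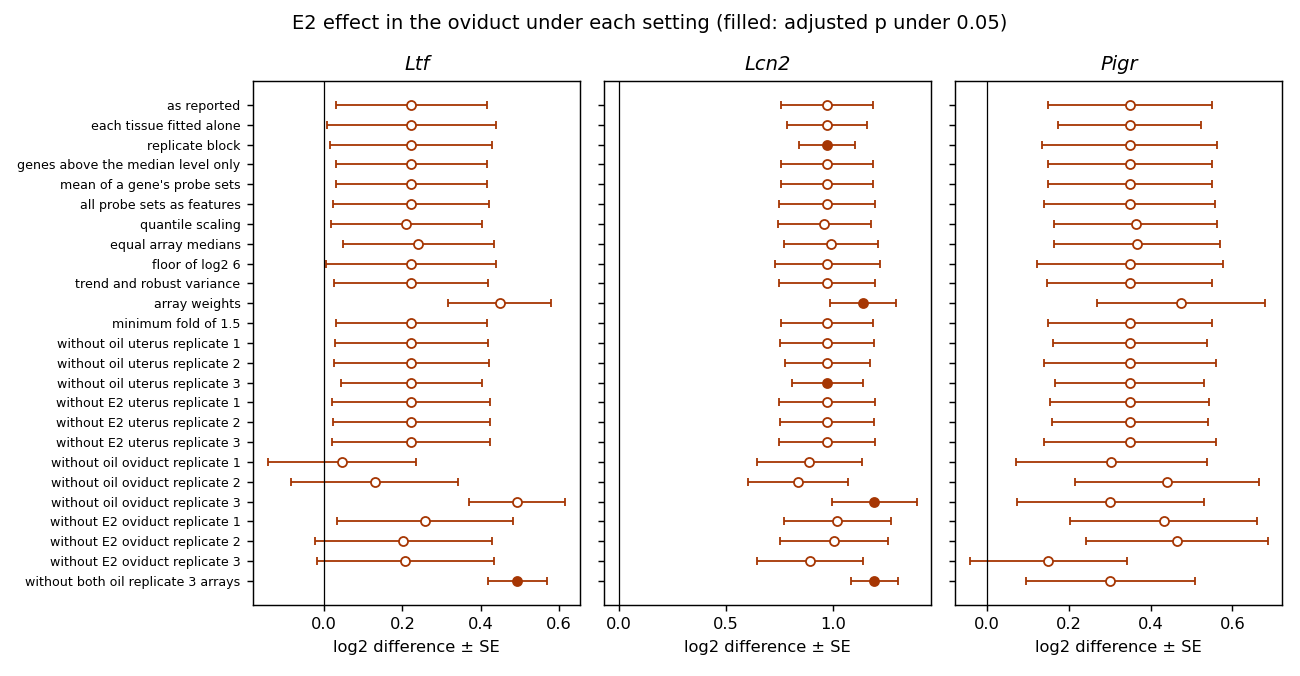
Log2 difference between E2 and oil oviduct with its SE (horizontal axes, which differ between panels) for each gene as reported and under each alternative (rows); filled points have an adjusted p under 0.05. Lcn2 lies between 0.83 and 1.19 throughout and passes in 5 of its 24 alternatives, Ltf passes in 1 of 24 and Pigr in none.

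The E2 effect was larger in uterus than in oviduct for each of the 3 genes when the difference itself was tested. It was 5.23 log2 units larger for Ltf (SE 0.27, adjusted p = 2.2e-06 by limma), 4.17 for Lcn2 (SE 0.30, adjusted p = 1.4e-05) and 3.14 for Pigr (SE 0.28, adjusted p = 4.4e-05). Of all genes 5.71% were called in this direction. Without both oil replicate 3 arrays the differences were 4.81, 4.20 and 3.02.

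The tissues differed in the starting level of the members. In oil mice Ltf was higher in oviduct than in uterus by 4.13 log2 units (SE 0.19, adjusted p = 2.8e-08 by limma), a 17.5-fold difference, and by 3.72 without both oil replicate 3 arrays. Lcn2 was higher by 3.31 (SE 0.21, adjusted p = 3.2e-07), a 9.93-fold difference. For both genes all oviduct arrays lay above all uterine arrays, as for 20.3% of all genes, and 17.3% of genes were called higher and 21.5% lower in oviduct. Of 14 epithelial markers 12 were higher and 0 lower in oil oviduct by limma, with a median of 0.97. Their summed intensity was 10311 to 11537 in oil oviduct and 4664 to 5443 in oil uterus. The part of epithelial content in the tissue differences of the members was not tested. Pigr had the other sign, at -0.49 (SE 0.20, adjusted p = 0.073 by limma), and was not called. It passed without oil uterus replicate 3 (-0.66, adjusted p = 0.026) or without E2 oviduct replicate 3 (-0.49, adjusted p = 0.043), and its adjusted p was 0.057 without both oil replicate 3 arrays. The uterine E2 comparison and this one share the oil uterus arrays, so their values are not independent of each other.

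After E2 the order of the tissues was turned for Ltf and Lcn2. Ltf was lower in E2 oviduct than in E2 uterus by a log2 difference of -1.10 (SE 0.19, adjusted p = 0.00091 by limma), which put the uterus 2.14-fold higher. Lcn2 differed by -0.86 (SE 0.21, adjusted p = 0.0085), with the uterus 1.81-fold higher. Pigr differed by -3.63 (SE 0.20, adjusted p = 1.3e-07), with the uterus 12.4-fold higher, and only 10 of 19938 genes lay further towards the uterus. In this comparison 18.9% of genes were called lower in oviduct, and 28.7% had all oviduct arrays below all uterine arrays, as all 3 members had. The calls of Ltf and Lcn2 ended when a fold above 1.5 was required.

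From lowest to highest, the order for Ltf was oil uterus, oil oviduct, E2 oviduct and E2 uterus, with overlap only between the oviduct groups. Lcn2 had the same order, and no neighbouring groups overlapped. The smallest gap between its neighbours was 0.44, from the highest oil oviduct array to the lowest E2 oviduct array. For Pigr the order was oil oviduct, E2 oviduct, oil uterus and E2 uterus. Its 3 lower groups overlapped from one to the next, and a gap of 2.89 separated E2 uterus from oil uterus.

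**Figure D3:**
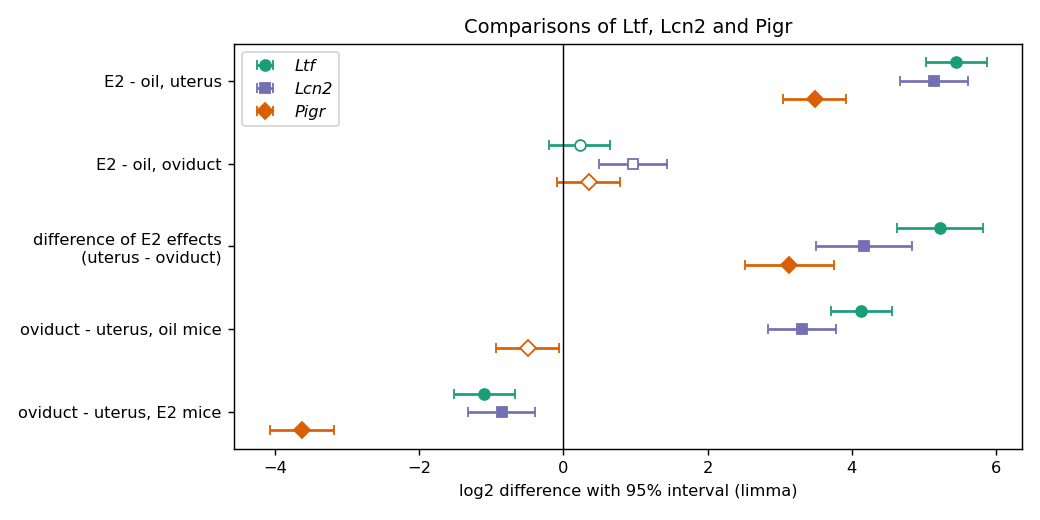
Log2 differences with 95% intervals (horizontal axis) for 5 comparisons of Ltf, Lcn2 and Pigr, where filled points have an adjusted p under 0.05 by limma. Ltf and Lcn2 run from positive in oil mice to negative in E2 mice in the tissue comparisons, whereas Pigr is at -0.49 and -3.63.

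Genes whose proteins are related to lactoferrin and lipocalin 2, or bind them, were examined next. Of 8 relatives and proposed receptors of lactoferrin, 1 rose and 1 fell in uterus, beside 12.4% and 14.3% of all genes, which is near the background. Transferrin (Trf), the serum iron carrier of the same family, rose by 0.89 (SE 0.16) and the nucleolar Ncl, a proposed lactoferrin binding protein, fell by 0.40 (SE 0.06). Among 18 partners and relatives of lipocalin 2, 1 rose and 1 fell, with a median of 0.00. Without both oil replicate 3 arrays each list had 2 rises and 1 fall. The gene that rose was Mmp9, the protease that pairs with lipocalin 2 in neutrophils (0.64, SE 0.17); its call ended without oil uterus replicate 3 (0.49) or E2 uterus replicate 1 (0.55).

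Megalin (Lrp2), an endocytic receptor that takes up lipocalin 2 and transports other ligands, moved opposite to it. Lrp2 ranged from 9.83 to 10.38 in oil uterus and from 5.57 to 5.91 in E2 uterus. It fell by 4.30 (SE 0.23, adjusted p = 2.7e-07 by limma), the lowest value of any gene tested in this comparison. In oviduct it ranged from 8.58 to 9.66 with oil and from 8.25 to 8.44 with E2, a difference of -0.84 that was not called (adjusted p = 0.21 by limma). Another lipocalin 2 receptor, Slc22a17, lay at 7.76 to 7.80 in oil uterus and 7.57 to 7.63 in E2 uterus and was not called (-0.17, adjusted p = 0.12 by limma). Slc22a17 was named after its values were seen.

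Of 18 genes of cellular iron handling, 7 rose and 3 fell in uterus, with a median of 0.07, beside 12.4% and 14.3% of all genes. The same counts were found without both oil replicate 3 arrays. Ferroportin (Slc40a1), the exporter of iron from cells, ranged from 6.29 to 6.86 in oil uterus and from 10.05 to 10.37 in E2 uterus. It rose by 3.54 (SE 0.17, adjusted p = 1.4e-07 by limma), from a mean below the highest Y-linked value. Ceruloplasmin (Cp), a ferroxidase that works beside it, rose by 1.38 (SE 0.12) and haptoglobin (Hp), which binds free haemoglobin, by 0.82 (SE 0.18). The genes that fell included Lrp2, which is in this list too, and the metalloreductase Steap4 (-1.28, SE 0.13). In oviduct 0 of 18 passed limma's test in either direction (1 was lower without both oil replicate 3 arrays), and 5 had an unadjusted p under 0.05.

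Among 19 measured genes of polymeric antibody production and transport 3 rose and 1 fell in uterus, with a median of 0.11, beside 12.4% and 14.3% of all genes, so the share that rose was near that of all genes. Ccl28, a mucosal chemokine that attracts IgA-producing cells, ranged from 6.36 to 7.10 in oil uterus and from 9.69 to 10.29 in E2 uterus, and rose by 3.34 (SE 0.32, adjusted p = 1.8e-05 by limma). The other rises in this list were at most 0.43. The IgA heavy chain (Igha) ranged from 5.09 to 5.37 in oil uterus and from 5.67 to 7.20 in E2 uterus. Its E2 arrays all lay above its oil arrays, as for 19.0% of all genes. The difference of 0.98 (SE 0.35) was not called (adjusted p = 0.062 by limma). The J chain (Jchain), which joins IgA into polymers, overlapped between groups (5.11 to 6.57 with oil and 5.21 to 6.19 with E2) and was at 0.17 (SE 0.56). Jchain was named after its values were seen. Of 11 B and plasma cell markers 0 passed limma's test in uterus or oviduct, with 2 at an unadjusted p under 0.05 in each tissue. Of all 19938 genes, 7193 in uterus and 2094 in oviduct had an unadjusted p under 0.05. All 11 lay below the highest Y-linked value on every uterine array.

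Of 27 other secreted defence genes measured, 12 rose and 2 fell in uterus, beside 12.4% and 14.3% of all genes, with a median of 0.33 against 0.00 for all genes. Besides the epithelial mucin Muc4 (3.99, SE 0.22) and complement factor B (Cfb; 3.93, SE 0.20), these included the chitinase-like Chil1 (3.53, SE 0.43) and the peptidoglycan recognition protein Pglyrp1 (2.99, SE 0.27). Lysozyme Lyz1 fell by 0.91 (SE 0.19), and its closely similar relative Lyz2, which can share signal with it, rose by 0.64 (SE 0.15), so both values are uncertain. In oviduct 0 of 27 rose by limma and 1 fell, and 4 had an unadjusted p under 0.05. The gene that fell in oviduct was the antiprotease Wfdc2 (-0.95, SE 0.12), which rose by 1.18 (SE 0.12) in uterus. This list overlaps one already tested on these arrays, so it is a description and no independent evidence.

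Among 26 measured cytokine and NF-kB regulators 7 rose and 2 fell in uterus, with a median of 0.13, beside 12.4% and 14.3% of all genes. Without both oil replicate 3 arrays 10 rose and 2 fell. Il1a, an epithelial inflammatory cytokine, rose by 3.52 (SE 0.31) from an oil uterus mean of 3.97. The endotoxin receptor Tlr4 rose by 0.84 (SE 0.09) and Nfkbiz, a nuclear cofactor of NF-kB known to be needed for Lcn2 induction, by 0.68 (SE 0.15). The adaptor Myd88, which links Toll-like receptors to NF-kB, fell by 1.38 (SE 0.18). In oviduct 0 of 26 passed limma's test, and 3 had an unadjusted p under 0.05.

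Of 12 steroid receptors, cofactors and reference targets, 2 rose and 1 fell in uterus (2 and 2 without both oil replicate 3 arrays). Of all genes, 12.4% rose and 14.3% fell, so these counts were near the background. The estrogen receptor gene Esr1 had means of 10.60 in oil uterus and 10.70 in E2 uterus (0.10, SE 0.06, adjusted p = 0.23 by limma), and was named after its values were seen. The estrogen target Greb1 rose by 1.42 (SE 0.11) and the coactivator Ncoa3 by 0.46 (SE 0.09). In oil mice Greb1, like Ltf and Lcn2, was higher in oviduct, at a mean of 9.02 against 6.83 in uterus. In oviduct 0 of the 12 passed limma's test, and 0 had an unadjusted p under 0.05.

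**Figure D4:**
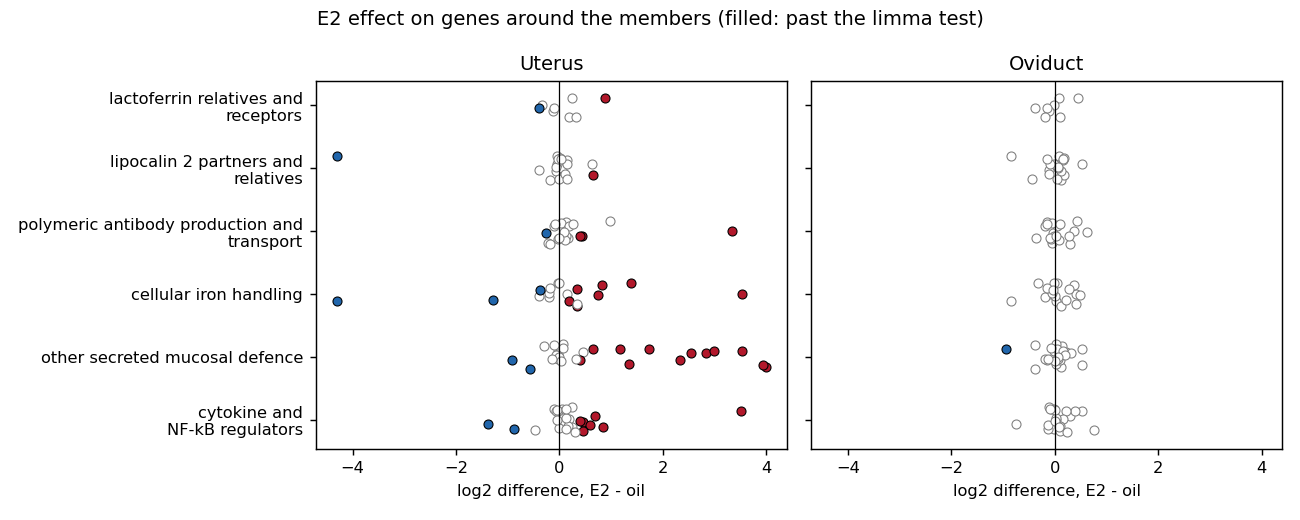
Log2 difference between E2 and oil (horizontal axis) for each measured gene of 6 lists (rows), in uterus and in oviduct, with genes past the limma test filled red when higher and blue when lower. In uterus the defence list holds 12 filled red points and the iron list 7 against 3 blue, while in oviduct 1 point is filled.

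Because neutrophils store lactoferrin and lipocalin 2, their markers were examined beside the members. Of 20 neutrophil markers 3 rose and 1 fell in uterus, with a median of 0.00, beside 12.4% and 14.3% of all genes, so the share that rose was near that of all genes. The fall was not called without both oil replicate 3 arrays. The summed intensity of the list was 1128 to 1213 in oil uterus and 1365 to 1588 in E2 uterus. Most of that difference was Ly6g, whose probe set had means of 5.05 in oil uterus and 8.08 in E2 uterus (3.03, SE 0.20, adjusted p = 1.1e-06 by limma), and which belongs to a family of similar genes, so its identity is uncertain. The receptor Csf3r rose by 0.57 (SE 0.09), and Mmp9 has been described. The granule and cytosolic markers S100a8, S100a9, Ngp, Camp and Mpo, named after their values were seen, had E2 uterus means of 4.34, 5.21, 4.47, 5.55 and 5.66, and none was called. On all 3 E2 uterus arrays 16 of the 20 markers lay below the highest Y-linked value. The rest were Ly6g, Mmp9, Retnlg and Lrg1, the last 2 also named after their values were seen. Retnlg had means of 7.27 in oil uterus and 7.53 in E2 uterus (0.26, SE 0.25). Lrg1 had means of 7.93 and 7.50 (-0.44, SE 0.24), and neither gene was called. Macrophage markers rose in 8 of 10 genes in uterus and fell in 0 (9 had an unadjusted p under 0.05), with Cd68 at 1.22 (SE 0.16) and Csf1r at 1.12 (SE 0.14). Their summed intensity was 2518 to 3001 with oil and 4328 to 4692 with E2, and the part of these cells in the levels of the members was not tested.

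The genes nearest to the members on their chromosomes differed by 0.50 log2 units or less. Of the 2 nearest measured genes on each side, 12 in all, 3 were called in uterus, each higher. Of all genes, 12.4% were called higher and 14.3% lower in this comparison. The 3 were Ccrl2 beside Ltf (0.40, SE 0.08), 1110008P14Rik beside Lcn2 (0.50, SE 0.08) and AA986860 near Pigr (0.30, SE 0.08). The call of AA986860 ended without oil uterus replicate 1 (0.26) or E2 uterus replicate 1 (0.25). None of the 3 kept its call when a fold above 1.5 was required. Pigr lies between Fcamr and Fcmr, both receptors for IgM, and these were at -0.21 (SE 0.13) and -0.10 (SE 0.07). None of the 12 was called in oviduct by limma. This look at neighbours was added after the values were seen.

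The genes most alike in pattern were ranked by Pearson r of log2 values over the 12 arrays, which fall into 4 groups and share tissue and treatment, so r is a description without a test. For Ltf they were Fndc1 (r = 0.988), the diamine oxidase Aoc1 (0.988), the membrane protease St14 (0.987), the fucosyltransferase Fut9 (0.986) and the integrin cofactor Fermt1 (0.985). Aoc1 ran closest in size as well, with uterine means of 5.67 with oil and 11.28 with E2, and oviduct means of 10.54 with oil and 10.55 with E2. Over the 6 uterine arrays these 5 genes had r of 0.993 to 0.998 with Ltf, and over the 6 oviduct arrays 0.03 to 0.58.

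For Lcn2 they were the monocarboxylate transporter family gene Slc16a6 (0.983), the integrin Itgb6 (0.982), Prxl2a (0.980), Fut9 (0.979) and Ltf itself (0.979). Lcn2 was rank 10 in the order for Ltf. Pigr was rank 2991 for Ltf (r = 0.48) and rank 2614 for Lcn2 (r = 0.51), although within the uterine arrays alone it had r of 0.995 and 0.980 with them. For Pigr the most alike were Cfb (0.994), the cornified envelope gene Sprr2b (0.991), Slc40a1 (0.990), the interferon-inducible Oas3 (0.990) and the calcium channel Trpv6 (0.986). In E2 uterus these 5 genes rose by 1.52 to 3.93, and in oil mice their oviduct minus uterus differences were -0.05 to -0.39. Sprr2b belongs to a cluster of closely similar genes, and its probes may read more than 1 of them. Ranked by Spearman correlation, 0 of 5 genes stayed in the leading 5 for Ltf, 1 for Lcn2 and 0 for Pigr, so the exact names rest on the measure.

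**Figure D5:**
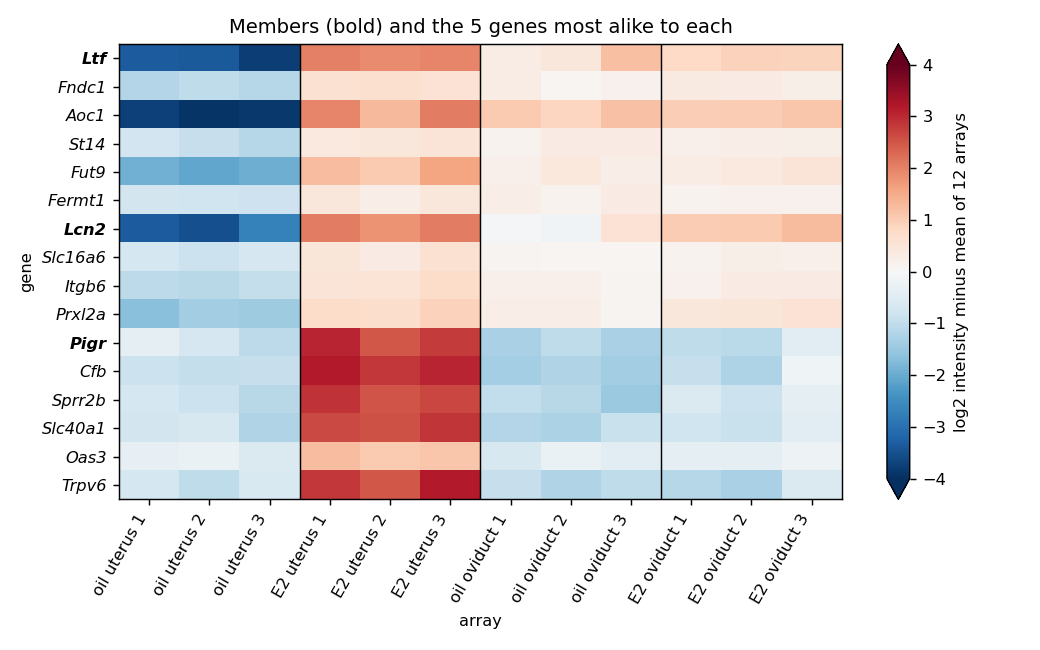
Log2 intensity minus the gene's mean over 12 arrays (colour; values beyond 4 units take the end colours) for the 3 members in bold and the 5 genes most alike to each, with arrays in columns by group. Rows from Ltf to Prxl2a are low in the oil uterus alone, and rows from Pigr to Trpv6 are high in the E2 uterus alone.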

How the data were processed

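RNA of 12 samples was hybridised to Affymetrix mouse gene arrays. The deposited values are intensities that the authors made with RMA, per the submitters' processing notes. No further steps are stated there. All values were above 0 and reached 9950, so they were taken as linear and log2 transformed. Of 35556 probe sets, 21789 had 1 gene symbol in the platform annotation, 1621 had several and 12146 none. Gene identifiers of 21698 matched the GRCm38.p6 gene table. For a gene with several probe sets the one of highest mean was kept, leaving 19938 genes. No intensity filter was used.

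One limma 3.58.1 model (R 4.3.3; lmFit, then eBayes) held all arrays, with a mean for each of 4 groups. Tests were two-sided, p-values were adjusted by Benjamini-Hochberg across the genes, and 0.05 was the threshold. The script was tested on simulated data. The number of arrays limits the precision. Where replicates were not separate animals, p-values measure only the spread between samples. From each list up to 4 genes past the test per direction were named, or up to 2 as values where none passed, and for each member the 5 genes most alike. Of 217 listed genes 205 were measured. The members and lists were chosen with earlier results of these data known. Promoter sequences are from RefSeq, and all 3 members matched. Alternatives covered the fit, blocks, filters, gene measures, scaling, variance, weights, fold threshold and left-out arrays.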

Additional observations from a re-analysis of the deposited data

Results flagged for a closer look

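The E2 effect differed between uterus and oviduct for each of the 3 members by the interaction contrast of limma. The effect in uterus minus that in oviduct was 5.23 log2 units for Ltf, 4.17 for Lcn2 and 3.14 for Pigr. Every E2 uterus array of the 3 genes lay above every oil uterus array, as for 19.0% of all genes.

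The same difference passed the test for other genes named in the text. It was positive for Aoc1 (5.60), Muc4 (3.86), Trpv6 (3.56), Cfb (3.40), Chil1 (3.38), Il1a (3.31), Fut9 (3.13), Slc40a1 (3.13), Sprr2b (3.02), Pglyrp1 (3.01), Ccl28 (2.96), Elf3 (2.64), Ly6g (2.41), Wfdc2 (2.13), Krt19 (2.08), Krt7 (2.08), Prxl2a (2.00), Fndc1 (1.59), Greb1 (1.55), Itgb6 (1.53), St14 (1.42), Oas3 (1.38), Cp (1.34), Fermt1 (1.28), Epcam (1.13), Slc16a6 (1.11), Cd68 (0.99), Tlr4 (0.75) and AA986860 (0.53). It was negative for Lrp2 (-3.46), Steap4 (-1.50) and Lyz1 (-1.01). Most of these genes had been named for a large uterine change or for likeness to a member on these same arrays. Passing was therefore largely set by that choice, and the list is no independent evidence. Over all 19938 genes, 1138 were called positive and 1150 negative in this comparison.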

How the results depend on the processing

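Each member's comparison was recomputed under 24 alternatives. The uterine E2 effects, the differences between tissues of the E2 effect, the higher level of Ltf and Lcn2 in oil oviduct and the lower level of Pigr in E2 oviduct kept their direction and call in all of them. No member changed sign under any alternative. Uterine effects ranged from 5.31 to 5.53 for Ltf, 4.97 to 5.39 for Lcn2 and 3.10 to 3.64 for Pigr.

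In oviduct, the E2 effect of Lcn2 passed the test with the replicate block (0.97, adjusted p = 0.031 by limma), with array weights (1.14) and without both oil replicate 3 arrays (1.19), and with single arrays left out it ranged from 0.83 to 1.19. That of Ltf passed without both oil replicate 3 arrays (0.49). In oil mice the tissue difference of Pigr passed with array weights (-0.68), and ranged from -0.66 to -0.34 with single arrays left out. In E2 mice the tissue differences of Ltf (-1.10) and Lcn2 (-0.86) did not pass when a fold above 1.5 was required. The cause of these changes was not tested.

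Counts of genes called moved more. In uterus 4019 genes were called higher with array weights, and 312 higher and 186 lower at the fold of 1.5. In oviduct, genes higher and lower were 6 and 4 with each tissue fitted alone, 10 and 9 over all probe sets, 21 and 15 with a floor of log2 6, 128 and 136 with array weights, and 49 and 72 without both oil replicate 3 arrays. At the fold of 1.5 they were 3 and 0 by limma's treat (23 and 15 at an unadjusted p under 0.05). Lower genes were 16 with the replicate block and 16 with quantile scaling. With single arrays left out the oviduct counts ranged from 7 to 36 in each direction. Genes with a larger E2 effect in uterus were 2345 with array weights and 168 at the fold of 1.5, those with a smaller one 2186 and 82, and 729 to 1228 with single arrays left out. At the fold of 1.5, 988 genes were higher and 565 lower in oil oviduct, and 784 higher and 325 lower in E2 oviduct. Lower in E2 oviduct were 5693 over all probe sets and 6263 with array weights.

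The labels do not say whether equal replicate numbers mean the same mouse. Correlations of deviations between same-numbered arrays ranged from -0.20 to 0.26. All negative values were between oil and E2 arrays, which cannot come from one mouse. The 6 between uterus and oviduct of one treatment were all above 0, with oil replicate 3 and E2 replicate 1 at 0.26. These values do not settle whether the samples were paired, and the main fit did not pair them. If they were paired, the p-values of the comparisons between tissues do not account for it. A block by replicate number within each treatment was run for the comparisons between tissues and for the difference of the E2 effect. It changed no call of the 3 members. The replicate block reported above also joins oil and E2 arrays of equal number, so it is no test of pairing. With that block 16 oviduct genes were called lower in place of 26. Of 1046 recomputed uterine values of 44 other genes, 1027 kept their call, 19 did not pass and 0 changed sign. Levels below the highest Y-linked value limit the exact folds of the members in oil uterus.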
